A study of Mus musculus with 6 samples.

Results

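Integrins, laminins and the other genes that tie epithelium to its basement membrane were examined in mammary epithelial cells of pregnant mice. Members were taken by gene symbol, from probe sets that name 1 gene only. The symbols were those of integrin alpha and beta subunits and of laminin alpha, beta and gamma chains, together with Nid1, Hspg2, Agrn, Dag1, Ilk, Ptk2 and Cd151. This gave 48 probe sets of 45 genes, out of 28853 probe sets on the array. They comprised 10 probe sets of integrins found on epithelium, 10 of leukocyte integrins, 2 of platelet integrins, 7 of other integrins, 11 of laminin chains, 3 of linkers between laminin and other matrix networks, and 5 of further receptors and adaptors. Nid2 was also in the rule, but its probe sets name a second gene as well and were not members.

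All 6 mice carried a floxed insulin receptor gene (IRfl/fl) and were females bred with CD1 males. The 3 Cre- mice (numbered 1, 2 and 4) had no Cre recombinase and served as controls. The 3 Cre+ mice (5, 6 and 7) carried Cre under the promoter of BLG, the milk protein beta-lactoglobulin, so deletion depends on cells in which that promoter is active. Age was not given in the sources used here. Glands were taken at pregnancy day 13.5 and digested with collagenase to obtain the epithelial cells, and RNA from each mouse was hybridised to 1 Affymetrix MoGene 1.0 ST array. Cre+ and Cre- cells below name the whole preparation from a mouse, not single cells with or without the deletion. P-values measure the spread between these mice and their arrays.

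In the mammary gland a basement membrane surrounds each alveolus and duct. Laminins are trimers of 1 alpha, 1 beta and 1 gamma chain. They polymerise into a sheet that nidogens, perlecan and agrin connect to collagen IV. Epithelial cells bind this sheet through integrins, which are alpha-beta heterodimers, and through dystroglycan. In mammary epithelium, laminin binding by beta 1 integrins and dystroglycan is known to be needed for full milk protein expression, and the alpha 6 beta 4 integrin anchors the basal cell surface in hemidesmosomes. Leukocyte integrins serve adhesion and homing of immune cells.

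Array medians lay between 28.4 and 29.3 linear units, and the lowest intensity anywhere was 18.7, so values in the 20s are close to the low end of the scale. Whether a constant was added before deposit is not known, and if so the folds of dim probe sets are understated. With 16 taken off every intensity, the log2 change was 0.89 in place of 0.66 for Lama3, 1.02 in place of 0.69 for Nid1, 0.61 in place of 0.34 for Itga9, 0.33 in place of 0.21 for Itgb3 and 0.29 in place of 0.14 for Lama2, with the same calls. Insr, the targeted gene, had intensities of 106, 104 and 122 in Cre- and 55.2, 47.7 and 71.2 in Cre+ cells at probe set 10576692. It fell by 0.95 on the log2 scale (SE 0.15, adjusted p = 0.0231) there and by 0.52 (SE 0.09, adjusted p = 0.0285) at probe set 10576696. Whether these probes lie in the deleted part is not known. Luminal epithelial transcripts were present on every array, with Krt8 between 808 and 1508 and Epcam between 306 and 515, as were the basal keratins Krt5 (125 to 250) and Krt14 (187 to 266). The preparation thus held several cell types. In such bulk RNA, fewer cells of a type and less RNA per cell cannot be told apart. The mean log2 level of 10 basal myoepithelial markers lay between 7.13 and 7.71 in Cre- and between 7.98 and 8.06 in Cre+ mice. Of 7 milk genes of secretory cells, 6 fell, and their mean lay between 10.3 and 10.5 in Cre- and between 8.95 and 9.36 in Cre+ cells.

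The comparison asked which matrix and adhesion transcripts differed between Cre+ and Cre- cells. A single member, Lama3, the alpha 3 chain of epithelial laminin, passed the test, higher in Cre+ cells by 1.58-fold. Lamc1 and Nid1 had changes of similar size in the same direction and Lamb3 in the opposite direction, and none of these passed. Integrin probe sets had smaller changes, with none called. Of the 48 probe sets, 1 was called higher and 0 lower at limma adjusted p under 0.05, which is 2.08% and 0% of the members. Among all 16921 tested probe sets the shares were 2.03% higher and 2.14% lower, so the members were called about as often as any probe set in the upward direction. At an unadjusted p under 0.05, 7 members (14.6%) were higher and 2 (4.17%) lower, against 10.2% and 9.83% of all tested probe sets. All Cre+ arrays lay above all Cre- arrays for 7 members (14.6%) and below for 3 (6.25%), against 12.9% and 12.7% of all tested probe sets. The median change over the members was 0.01, and 24 of the 48 changes were above 0. For all tested probe sets the median was 0.00.

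**Figure D1:**
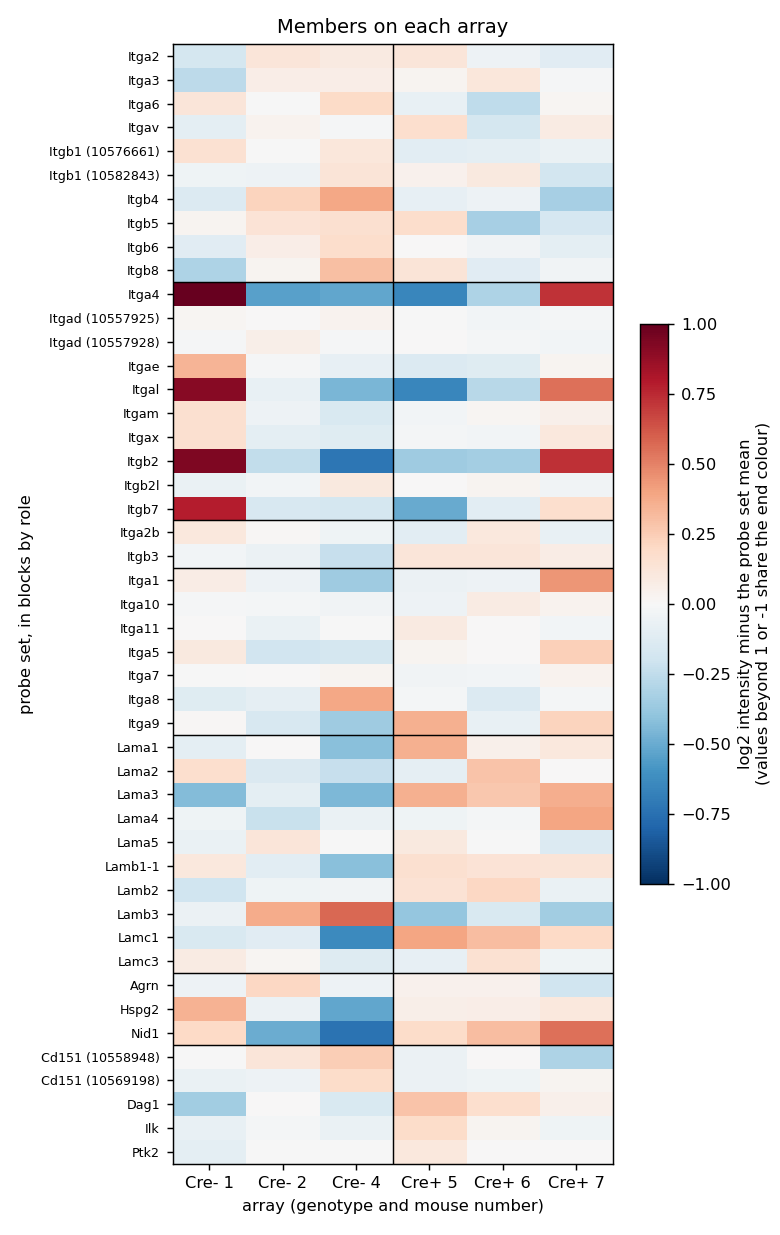
Each row is 1 of 47 member probe sets and each column 1 array; colour gives the log2 intensity minus that probe set's mean over the 6 arrays, and black lines part the roles in the order epithelial, leukocyte, platelet and other integrins, laminin chains, linkers, receptors and adaptors. Lama3, Lamc1 and Lamb3 divide by genotype, while Itga4, Itgal and Itgb2 are high on Cre- 1 and Cre+ 7.

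Among laminin chains, Lama3 and Lamb3 are described first. The alpha 3 and beta 3 chains belong to a laminin that lies under stratified and glandular epithelia and is the ligand of hemidesmosomes. Lama3 had intensities of 47.1, 59.5 and 46.7 in Cre- 1, 2 and 4 and of 81.6, 76.6 and 81.8 in Cre+ 5, 6 and 7. All 3 Cre+ mice were therefore higher, with no overlap between the groups. Lama3 rose by 0.66 on the log2 scale (SE 0.11, 95% interval 0.39 to 0.92, adjusted p = 0.0267). In the authors' deposited table its ratio was 1.57, with an unadjusted p of 0.0031. The call was kept without Cre- 1 (adjusted p = 0.0403) or Cre- 2 (0.0376), and lost without Cre- 4 (0.0716), Cre+ 5 (0.103), Cre+ 6 (0.0884) or Cre+ 7 (0.0716), while the change stayed between 0.60 and 0.77. With the equal-variance test on linear intensities the adjusted p was 0.127.

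Lama3 is expressed by basal and luminal epithelial cells. Of 10 basal markers, 4 rose and none fell, with no overlap between the groups in their mean. The mean of 8 luminal epithelial markers lay between 8.26 and 8.91 in Cre- and between 8.19 and 8.51 in Cre+ mice. Those groups overlapped, with 0 of 8 called. The part of these marker levels in the Lama3 result, and in that of Lamb3 below, was not tested. No array value is 0 on this scale, so a cell type cannot be called absent from it.

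Lamb3, the beta 3 chain, had intensities of 101, 137 and 157 in Cre- 1, 2 and 4 and of 80.8, 94.8 and 83.2 in Cre+ 5, 6 and 7. Every Cre+ mouse lay below every Cre- mouse, the opposite of Lama3. Its change was -0.59 (SE 0.16, 95% interval -0.96 to -0.22, adjusted p = 0.0871), which did not pass. Without Cre- 1, the lowest of its group, the change was -0.77 and passed (adjusted p = 0.0162). Without any other single array it did not pass, and it was smallest without Cre- 4, at -0.45 (adjusted p = 0.196).

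Because Lama3 and Lamb3 were singled out after their values were seen, their contrast is given as a description. Within each array, log2 Lama3 minus log2 Lamb3 was -1.11, -1.20 and -1.75 in the Cre- mice and 0.01, -0.31 and -0.02 in the Cre+ mice. The mean difference shifted by 1.25, from -1.35 ± 0.35 to -0.11 ± 0.18 (SD, n = 3 each). The probe sets differ in affinity, so only this shift, and not the level of one chain against another, can be read. Its size was 1.58 with 16 taken off every intensity, and 1.05 to 1.37 with 1 array left out.

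Lamc1, the gamma 1 chain shared by most laminins, had intensities of 146, 150 and 104 in Cre- 1, 2 and 4 and of 214, 201 and 187 in Cre+ 5, 6 and 7. The groups did not overlap, with Cre- 4 lowest. The change was 0.61 (SE 0.14, 95% interval 0.27 to 0.94, adjusted p = 0.0619), short of the threshold. With arrays weighted by their quality it passed (0.58, adjusted p = 0.0375). With any 1 array left out it did not pass in limma (adjusted p 0.0504 to 0.191). Its change was then lowest without Cre- 4, at 0.44. In the authors' deposited table the ratio of Lamc1 was 1.51 and that of Lamb3 0.65. Lama1 and Lamb1-1 (now Lamb1), which join gamma 1 in the laminin typical of embryonic and some epithelial basement membranes, also lay higher in every Cre+ mouse. Lama1 was between 87.7 and 117 in Cre- and between 121 and 149 in Cre+ mice (change 0.34, SE 0.13, adjusted p = 0.208). Lamb1-1 had 150, 129 and 104 in Cre- against 156, 153 and 153 in Cre+ mice (change 0.28, SE 0.13, adjusted p = 0.281). The change of Lamb1-1 was 0.14 without Cre- 4 and 0.41 without Cre- 1. Neither passed.

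Other laminin chains showed no called change. Lama5, the main alpha chain of adult epithelial and endothelial basement membranes, had 71.0, 81.0 and 74.2 in Cre- and 79.7, 74.4 and 67.6 in Cre+ mice, a change of -0.03 (SE 0.10, 95% interval -0.26 to 0.20). Lamb2, a beta chain of vessels, muscle and nerve, had 72.6, 81.0 and 81.2 in Cre- and 92.1, 96.1 and 79.7 in Cre+ mice, with Cre+ 7 below the highest Cre- mice. Its change was 0.19 (SE 0.10). Lama4, a chain of vessel walls and fat, had 0.22 (SE 0.13), with Cre+ 7 highest at 77.5 and the other 5 arrays between 50.4 and 58.0, and 0.077 without Cre+ 7. Lama2, the muscle and nerve chain, and Lamc3 were at most 37.8 on every array, and their changes were 0.14 (SE 0.13) and 0.02 (SE 0.08). Over the 11 chains the median change was 0.19, with 8 above 0. For all tested probe sets the median was 0.00, with 8726 of 16921 above 0. On the same arrays the mean of 8 fibroblast markers lay between 5.62 and 6.54 in Cre- and between 6.44 and 6.86 in Cre+ mice, with 1 of 8 risen. That of 8 endothelial markers lay between 5.60 and 6.40 and between 5.98 and 6.41, with 0 of 8 called. Stromal and endothelial cells also make gamma 1 laminins, and the part of these markers in the changes was not tested.

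**Figure D2:**
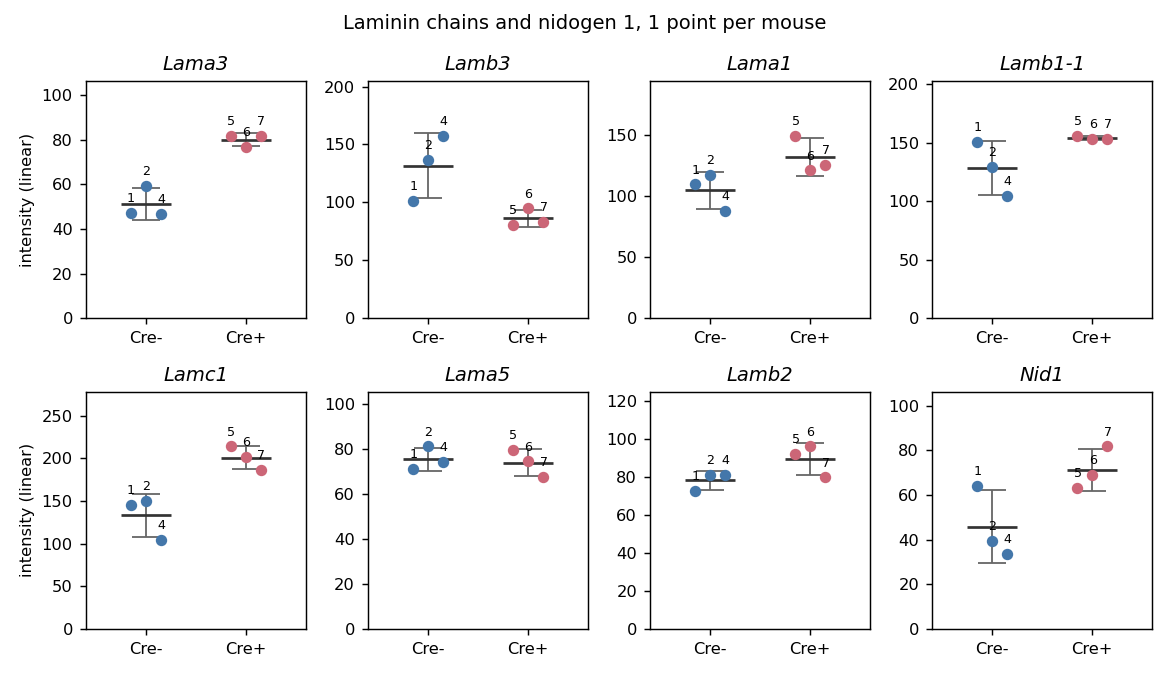
Linear intensity of 7 laminin chains and Nid1, with 1 point per mouse labelled by its number, a bar at the group mean and error bars of 1 SD (n = 3). Cre+ points lie above all Cre- points for Lama3, Lama1, Lamb1-1 and Lamc1 and below them for Lamb3; for Lama5, Lamb2 and Nid1 the groups overlap.

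Nid1, Hspg2 and Agrn encode the linkers nidogen 1, perlecan and agrin. Nid1 had intensities of 64.2, 39.6 and 33.5 in Cre- 1, 2 and 4 and of 63.3, 69.0 and 81.8 in Cre+ 5, 6 and 7. Cre- 1 lay among the Cre+ mice, and the other Cre- mice lay below all of them. The change, the largest of any member, was 0.69 (SE 0.23, 95% interval 0.16 to 1.22, adjusted p = 0.145) and did not pass. Without Cre- 1 it was 0.96 and passed (adjusted p = 0.0148). Without any other single array it did not pass, and it was lowest without Cre- 4, at 0.49 (adjusted p = 0.315). Nid1 is made chiefly by mesenchymal cells. The fibroblast marker mean was 6.54 in Cre- 1, 6.00 in Cre- 2 and 5.62 in Cre- 4, and its part in the Nid1 values was not tested. Hspg2 spread widely among the controls, at 122, 91.9 and 66.5, against 99.5, 99.9 and 103 in Cre+ mice. Agrn lay between 105 and 139 on all arrays.

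The starts of the genes with the largest change in each direction among the 30 of 45 member genes in RefSeq's promoter table (GRCm38.p6) are shown, to put sequence beside the laminin and nidogen values. Each run is the 250 bases before the annotated start, both on the plus strand. Lamb3 is at chr1:193301744-193301993, the first of 2 starts listed, and Nid1 at chr13:13437352-13437601. Capitals mark a match to GGGCGG, the core of Sp1 type sites, on either strand.
Lamb3: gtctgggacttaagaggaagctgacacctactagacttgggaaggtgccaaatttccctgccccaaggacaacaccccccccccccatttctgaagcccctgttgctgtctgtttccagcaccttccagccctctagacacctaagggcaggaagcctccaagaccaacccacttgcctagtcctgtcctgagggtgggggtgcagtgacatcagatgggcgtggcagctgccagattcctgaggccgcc
Nid1: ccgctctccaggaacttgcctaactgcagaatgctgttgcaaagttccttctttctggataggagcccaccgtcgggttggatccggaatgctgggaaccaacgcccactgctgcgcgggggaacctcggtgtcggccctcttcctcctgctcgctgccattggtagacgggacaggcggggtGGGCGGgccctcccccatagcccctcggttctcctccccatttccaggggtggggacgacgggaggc

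The motifs below were searched on both strands in the 300 bases around each start, which include 50 after it. A gene with several starts was counted if any of them held the motif. The number of starts per gene was not matched between members and all genes. GGGCGG was found for 17 of the 30 genes (56.7%), against 38.2% of the 27025 genes in the table. TTCNNNGAA, the Stat5 type, was found for 2 (6.67% against 9.55%). TGACTCA, the AP-1 type, was also found for 2 (6.67% against 5.95%). CACGTG, an E-box, was found for 1 (3.33% against 8.09%), and TGTTTAC, the Fox type, for 0 (against 4.05%). Neither Lamb3 start held any of them, and Nid1 held GGGCGG only. A match is not evidence of binding.

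Epithelial integrins had changes between -0.31 and 0.09, a narrower range than the laminins, and none of their 10 probe sets passed. Itga6, the alpha partner in both alpha 6 beta 1 and alpha 6 beta 4, had intensities of 759, 696 and 795 in Cre- 1, 2 and 4 and of 660, 584 and 706 in Cre+ 5, 6 and 7. The highest Cre+ mouse overlapped the lowest Cre- mouse. The change was -0.21 (SE 0.09, 95% interval -0.42 to 0.01, adjusted p = 0.267). Itgb4, the hemidesmosome subunit, had 81.2, 104 and 117 in Cre- and 84.5, 86.4 and 70.9 in Cre+ mice. Here Cre- 1 lay within the Cre+ range, and the change was -0.31 (SE 0.15, 95% interval -0.66 to 0.03, adjusted p = 0.294).

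Itgb1, the common partner of the collagen, laminin and fibronectin receptors, was measured by 2 probe sets of unlike brightness. The difference between their changes was not tested. At 10576661 the intensities were 404, 363 and 393 in Cre- and 337, 340 and 347 in Cre+ mice, without overlap. The change there was -0.18 (SE 0.07, 95% interval -0.34 to -0.01, adjusted p = 0.220), not past the test. At 10582843 they were 67.5, 67.2 and 75.9 against 71.7, 74.5 and 61.2, a change of -0.03 (SE 0.10, 95% interval -0.27 to 0.22). Its laminin-binding partner Itga3 had 55.4, 69.8 and 69.7 in Cre- and 67.7, 72.0 and 66.1 in Cre+ mice (change 0.09, SE 0.11, 95% interval -0.17 to 0.35). Its collagen-binding partner Itga2 had 43.9, 53.9 and 52.8 against 54.1, 48.0 and 45.9 (change -0.02, SE 0.11, 95% interval -0.28 to 0.23). In both genes the groups overlapped.

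Of the subunits that bind fibronectin, vitronectin or latent TGF-beta, Itgav lay between 106 and 134, Itgb5 between 106 and 151 and Itgb8 between 74.8 and 114 over all arrays, with overlapping groups. Itgb6 was near the low end of the scale, between 25.7 and 31.5. Itga6 and Itgb4 are held to be highest in basal cells of the gland. Of the 10 basal markers 4 rose on these arrays. Krt5 (change 0.53, adjusted p = 0.108) and Krt14 (change 0.14, adjusted p = 0.625) were also higher in the mean but did not pass. The part of the basal markers in the integrin values was not tested. The mean log2 level of the 10 epithelial integrin probe sets was 6.67 to 6.91 in Cre- and 6.66 to 6.79 in Cre+ cells.

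**Figure D3:**
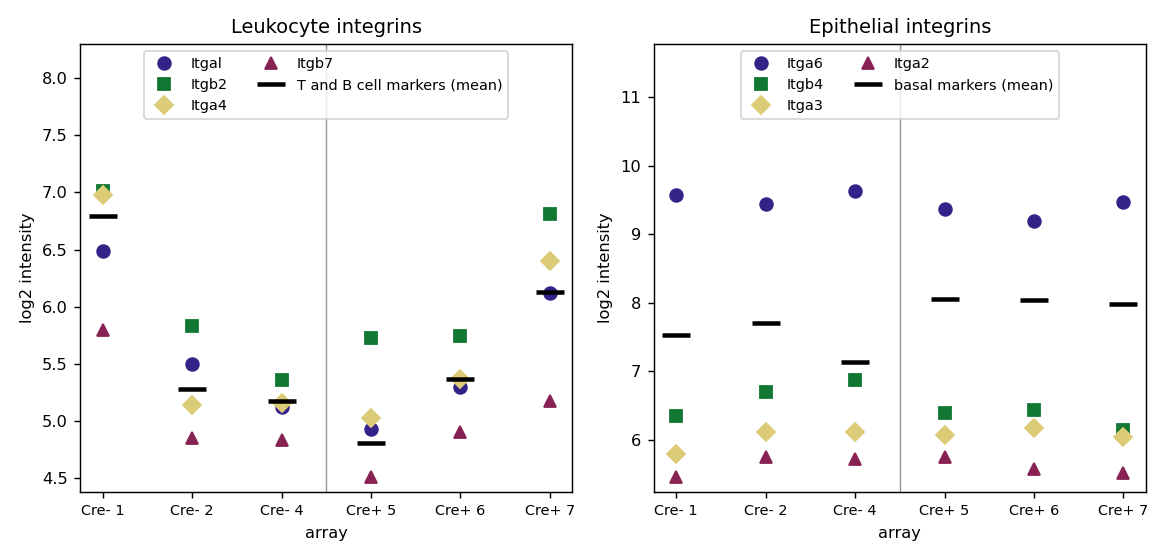
Log2 intensity on each array of 4 leukocyte integrins beside the mean of 12 T and B cell markers (left) and of 4 epithelial integrins beside the mean of 10 basal markers (right); the grey line parts Cre- from Cre+. Leukocyte integrins and T and B cell markers are highest on Cre- 1 and Cre+ 7. For each of the 4 epithelial integrins the groups overlap, while the basal mean is higher on all Cre+ arrays.

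Leukocyte integrins varied between mice of the same genotype and did not separate the genotypes. Itgal, the alpha chain of LFA-1 on lymphocytes, had intensities of 89.7, 45.3 and 34.8 in Cre- 1, 2 and 4 and of 30.4, 39.4 and 69.7 in Cre+ 5, 6 and 7. Itgb2, the beta chain of LFA-1 and of the myeloid integrins, had 129, 56.8 and 40.9 against 52.8, 53.5 and 112. For both genes Cre- 1 and Cre+ 7 were the highest arrays of their groups. Itga4, which directs lymphocyte homing, had 126, 35.1 and 35.7 against 32.6, 41.3 and 84.6, again highest on those arrays. Its partner Itgb7 was at 55.5 on Cre- 1 and 36.2 on Cre+ 7, and lower on each of the other arrays.

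The changes were -0.25 for Itgal (SE 0.39, 95% interval -1.17 to 0.66) and 0.02 for Itgb2 (SE 0.45, 95% interval -1.01 to 1.06). Without Cre- 1 and Cre+ 7 together they were -0.20 and 0.14. The mean of the 12 T and B cell markers was 6.79 on Cre- 1 and 6.13 on Cre+ 7, and between 4.81 and 5.36 on the other 4 arrays, with 0 of 12 called. The mean of macrophage and dendritic cell markers ranged from 5.93 to 6.52 in Cre- and from 6.39 to 6.61 in Cre+ mice, with 2 of 10 higher and 1 lower. The myeloid integrins Itgam, Itgax and Itgad, the intraepithelial lymphocyte integrin Itgae and Itgb2l were at most 34.6 on every array. Their groups overlapped except at 1 probe set of Itgad, where Cre- values of 27.7 to 28.2 lay above Cre+ values of 27.0 to 27.5.

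Of the platelet integrins, Itga2b lay between 24.6 and 28.4. Itgb3, which also pairs with alpha V on vessels and osteoclasts, had 45.9, 44.7 and 39.7 in Cre- and 50.7, 50.6 and 49.2 in Cre+ mice. Itgb3 was thus higher in each Cre+ mouse, with a change of 0.21 (SE 0.08, 95% interval 0.02 to 0.41, adjusted p = 0.211) that did not pass. The mean of 4 platelet markers lay between 4.55 and 4.62 in Cre- and between 4.71 and 4.80 in Cre+ mice, with 1 of 4 risen. These means are near the low end of the scale, and their part in the Itgb3 values was not tested.

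Among integrins mainly of stroma, vessels, muscle or nerve, Itga9, a receptor for tenascin and osteopontin, had 36.7, 32.6 and 28.4 in Cre- and 46.6, 34.6 and 42.4 in Cre+ mice. The groups overlapped at Cre+ 6, and the change was 0.34 (SE 0.13, 95% interval 0.03 to 0.64, adjusted p = 0.205). Itga1, a collagen receptor of stroma and vessels, was between 41.3 and 55.7 on 5 arrays and 71.6 on Cre+ 7. Itga8 was between 68.6 and 74.4 on 5 arrays and 98.8 on Cre- 4. Itga5, the fibronectin receptor, lay between 25.5 and 34.3, and Itga7, Itga10 and Itga11 between 22.4 and 27.5. None of the 7 passed.

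Dag1 encodes dystroglycan, the non-integrin laminin receptor. It had intensities of 201, 257 and 230 in Cre- 1, 2 and 4 and of 312, 288 and 265 in Cre+ 5, 6 and 7. Every Cre+ mouse was higher, though Cre+ 7 only narrowly above Cre- 2. The change was 0.33 (SE 0.11, 95% interval 0.08 to 0.59, adjusted p = 0.141), not past the test. Ilk, the scaffold that links beta integrin tails to actin, lay between 245 and 292 with overlapping groups. Ptk2, the focal adhesion kinase, lay between 115 and 122.7 in Cre- and between 123.2 and 132 in Cre+ mice. The Ptk2 groups thus narrowly did not overlap, with a change of 0.07 (SE 0.08, adjusted p = 0.681) that did not pass. Cd151, the tetraspanin partner of laminin-binding integrins, had 210, 229 and 250 against 203, 212 and 170 at its brighter probe set, with overlap.

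**Figure D4:**
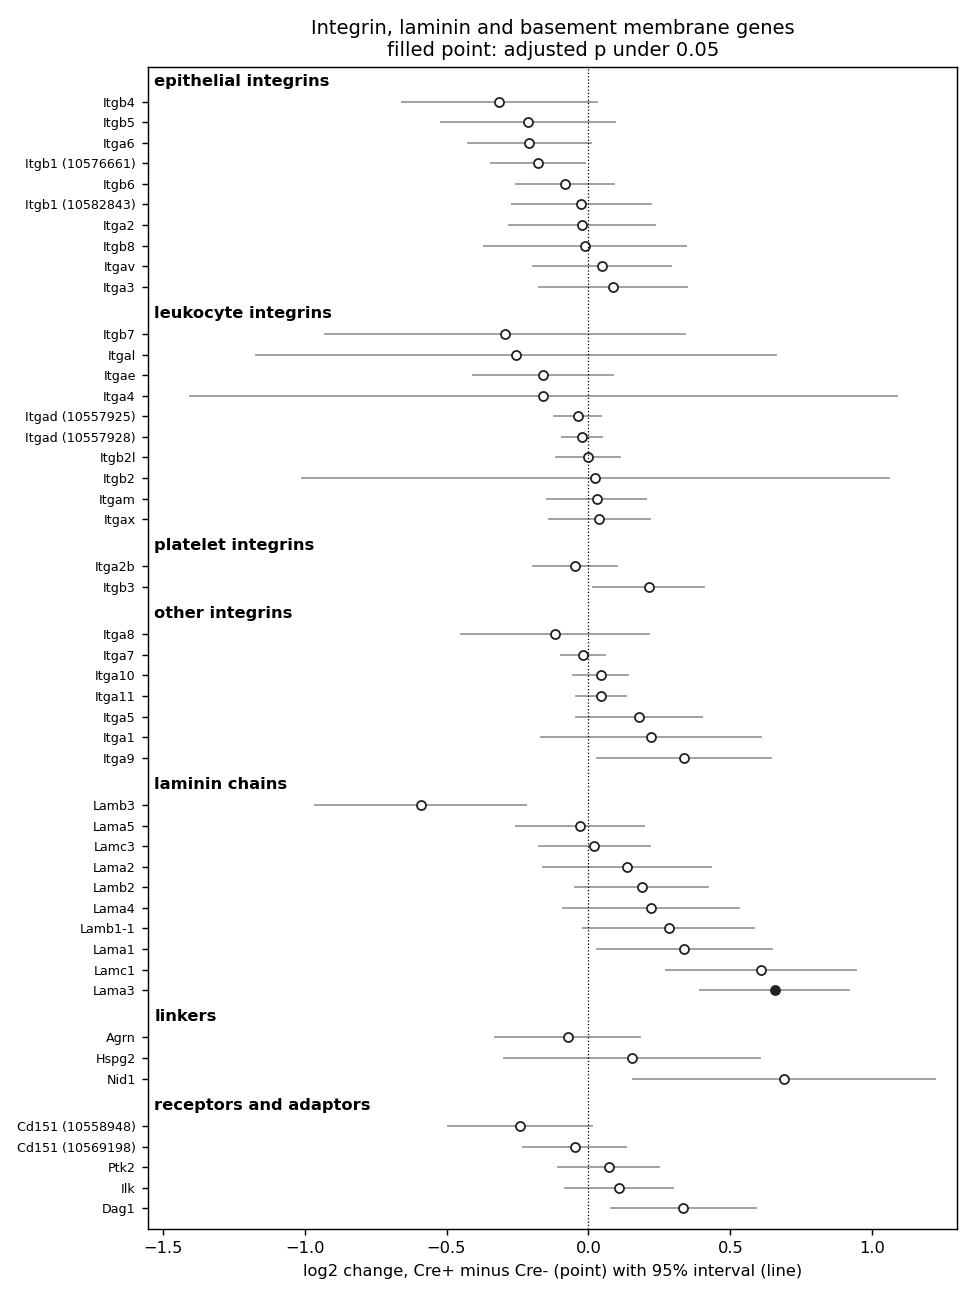
Log2 change, Cre+ minus Cre-, of 47 member probe sets with the 95% interval from the moderated fit, grouped by role; a filled point passed adjusted p under 0.05. Lama3 is the single filled point among those shown, Lamb3 lies farthest to the left and Nid1 farthest to the right.

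Genes that work with these receptors and with the basement membrane were taken from a list. It held chains of collagen IV and other collagens, hemidesmosome, focal adhesion and dystroglycan complex genes and other matrix receptors. Further matrix proteins and an intermediate filament gene were also in it. Of 52 tested probe sets of 47 genes, 2 rose (3.85%) and 0 fell, against 2.03% higher and 2.14% lower among all tested probe sets. The 2 that rose were Actn1, which encodes alpha-actinin 1, a cross-linker of actin at focal adhesions, and Rsu1, a partner of the integrin-linked kinase complex. Actn1 had 92.7, 106 and 98.4 in Cre- against 157, 136 and 135 in Cre+ mice, a rise of 0.53 (SE 0.10, adjusted p = 0.0313). Rsu1 had 223, 210 and 215 against 265, 265 and 278, a rise of 0.32 (SE 0.07, adjusted p = 0.0486). Neither group pair overlapped.

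The next smallest p-values belonged to Tns4 (change 0.55, adjusted p = 0.0635), Vcl, the vinculin gene (0.37, adjusted p = 0.0754), and Parva, a further partner of Ilk (0.28, adjusted p = 0.0853). None of these passed. At an unadjusted p under 0.05, 15 probe sets (28.8%) were higher and 2 (3.85%) lower, against 10.2% and 9.83% of all tested probe sets. Cre+ lay wholly above Cre- for 18 (34.6%) and below for 3 (5.77%), against 12.9% and 12.7%. Some of these 18 lay near the low end of the scale, with a change as small as 0.04. These shares count probe sets and not genes. Several probe sets of the list belong to Tns1, with changes from -0.15 (10355528) to 0.62 (10355534). The list's median change was 0.08, against 0.00 over all tested probe sets. The list was chosen with earlier results of these data known, so its shares and median are a description and not a test. Without Cre- 2, Cre- 4, Cre+ 5, Cre+ 6 or Cre+ 7 no probe set of the list passed in limma, with 10 to 12 higher at an unadjusted p under 0.05, and without Cre- 1 there were 5. The list holds genes of contractile and stromal cells. On the same arrays 4 of 10 basal markers and 1 of 8 fibroblast markers rose, and the fibroblast means overlapped between the groups. Their part in these counts was not tested.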

How the data were processed

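Intensities deposited by the authors were made by robust multi-array averaging over core exons in Expression Console, per the labels; version, build and annotation: not given in the sources used here. They are linear (18.7 to 10919), so log2 was taken. The deposited p-values were recomputed within 2e-04 by an equal-variance test on linear intensities, and the deposited ratio of Cre+ over Cre- means within 0.01. The authors' group means and errors were not used.

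Probe sets naming 1 gene with a mean at or above the 30th percentile (log2 4.48, linear 22.4) were tested, 16921 in all, and all 48 members were among them. Cre+ was compared with Cre- in limma 3.58.1 under R 4.3.3 (lmFit, eBayes with an intensity trend, two-sided, p adjusted by Benjamini-Hochberg across every tested probe set, threshold 0.05). Changes are log2, Cre+ minus Cre-, with moderated SE. The 6 arrays limit precision. Groups came from sample titles, and nothing in the labels gives a batch. The code was tested on simulated data.

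The values of 1 member probe set, a laminin chain, are not reported here, though counts and medians include it. Members and lists were chosen with earlier results of these data known. All 6 values are given for members past the threshold and for Itga6, Itgb4, Itgb1, Itga3, Itga2, Lama5, Lamb1-1, Lamc1, Dag1, Itgal and Itgb2; those given for other members were chosen after their values were seen. From the partner list, genes past the threshold and, if fewer than 5, the 5 with the smallest p are named. The alternatives were no filter, 16 taken off each intensity, median centring, no trend, robust variances, array weights, the equal-variance test, leaving out each array, and leaving out Cre- 1 and Cre+ 7.

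Other marker lists gave Cre- and Cre+ mean log2 levels of 5.34 to 5.35 and 5.14 to 5.26 for neutrophils and mast cells, 8.26 to 8.91 and 8.19 to 8.51 for luminal epithelium, 5.29 to 5.67 and 5.57 to 5.75 for pericytes, 5.30 to 5.54 and 5.49 to 5.71 for adipocytes, and 5.92 to 6.17 and 5.98 to 6.10 for Schwann cells, with 0 called in each.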

Additional observations from a re-analysis of the deposited data

How the results depend on the processing

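Of the 48 members, 4 were called under any of the 14 alternatives: Lama3, Lamb3, Lamc1 and Nid1. Member probe sets higher in Cre+ (1 as reported) numbered 3 with array weights or without Cre- 1 and Cre+ 7 together, 0 to 2 when 1 array was left out, and 0 with the equal-variance test, which called 0 of all probe sets after adjustment (2861 at an unadjusted p under 0.05, among them 4 members higher and 2 lower). Members lower (0 as reported, 2 at an unadjusted p under 0.05 in limma) numbered 1 with array weights and without that pair, and 0 to 1 with 1 array left out. Partner list rises (2 as reported) were 6 with array weights and without the pair, 1 with 16 taken off, median centring or no filter, 0 with the equal-variance test (14 unadjusted), and 0 to 5 with 1 array left out. All calls (706 of 16921 tested) became 1437 with array weights and 954 without the pair. With 1 array left out they ranged from 46 (without Cre+ 5) to 781 (without Cre- 1). Each alternative that raised the member or partner counts also raised all calls. Whether the members or partners gained more than other probe sets was not tested. Signs changed under some alternative for 21 members, with an adjusted p of at least 0.526 under each alternative that changed the sign. Itgb1 at 10582843 became 0.018 with array weights and 0.033 without the pair, Lamc3 -0.0079 with array weights, and Itgb2 -0.057 with the equal-variance test. With 1 array left out, the ranges were -0.117 to 0.031 for Itga2, -0.025 to 0.142 for Itga3, -0.081 to 0.060 for Itgb1 at 10582843, -0.591 to 0.138 for Itgal, -0.334 to 0.499 for Itgb2, -0.086 to 0.032 for Lama5 and -0.051 to 0.067 for Lamc3. The cause was not tested. No paired analysis was possible because the groups share no mouse number. Nothing says which mice were littermates. Signal near the low end limits Itgb6, Itga2b, Itga7, Itga10, Itga11 and the myeloid integrins.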

Other observations

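Several probe sets name a member gene together with another gene and were left out of all comparisons. Nid2, with 2700060E02Rik, lay between 143 and 165 in Cre- and between 140 and 146 in Cre+ mice at 1 probe set, and between 28.1 and 40.7 over all arrays at another. Itgb4, with Galk1, lay between 86.8 and 93.8 in Cre- and between 76.2 and 99.6 in Cre+ mice. These values cannot be assigned to 1 gene.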
